A study of Rattus norvegicus with 18 samples.

Results

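Cnmd encodes chondromodulin, a gene found under the older symbol Lect1 on many arrays. It was chosen by its measured ratio between rats of the WHP and WLP strains in the hippocampus, which was among the highest on these arrays. Every probe that names the gene was taken, which was 1 probe (A_42_P631818) of the 41012 distinct probes, for 1 of 16235 named genes. The arrays compared rats of high (WHP) and low (WLP) ethanol preference in 3 brain areas: the hippocampus, the nucleus accumbens and the prefrontal medial cortex. All rats were male and had had no alcohol. Each RNA was a pool of 3 rats of 1 strain and 1 area, and each of the 3 areas had 3 pool pairs, 1 WHP pool against 1 WLP pool. Each pair was run on 2 arrays with the dyes Cy3 and Cy5 swapped, which gave 18 arrays. Per the labels the pairs of an area are biological replicates, and whether the same rats gave the pools of all 3 areas is not stated.

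Chondromodulin is a type II transmembrane glycoprotein with a BRICHOS domain, whose extracellular end is cut off and secreted. It was first purified from cartilage, where it acts on chondrocytes and keeps vessels out of the tissue, and it is also known from heart valves. Its closest relative is tenomodulin, of tendon.

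The single probe lies on rat chromosome 15, at chr15:60891265-60891324 of the rn4 build, on the minus strand. It has 60 bases, of which 27 (45%) are G or C, and the longest run it shares with any of the other 41011 probes is 15 bases. The files do not say whether its site is coding or untranslated, so only its 5′ part is shown. It is given because every Cnmd value comes from this sequence.
Cnmd probe, first 30 bases: agcagaaccttggttgtgcaccgctgtgtg

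In the hippocampus Cnmd was brighter in the WHP pool on all 6 arrays. The scanner's mean signal ran from 612 to 1411 in the WHP channels and from 142 to 267 in the WLP channels, over local backgrounds of 20 to 46. The channels did not overlap, and all 12 were well above background, the scanner's own test of a spot against its surroundings. The log2 ratio of WHP over WLP was 2.08 and 2.34 on the arrays of pool pair 1. It was 1.81 and 2.14 in pair 2, and 1.74 and 2.11 in pair 3. The lowest of these ratios, 1.74, lay above every Cnmd ratio in the other areas in the main processing, which draws ratios of dim spots towards 0. In the authors' deposited log2 ratios the areas overlapped. There the hippocampus arrays had 1.89 to 2.67, and the prefrontal arrays of pair 2 had 4.00 and 2.38. In the accumbens array 2 of pair 1 had 2.39 and array 1 of pair 2 had 2.29. The other accumbens and prefrontal arrays had -1.88 to 0.97.

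The pool-pair means were 2.21, 1.98 and 1.92, with a mean of 2.04 (SD 0.15, n = 3 pool pairs), a 4.10-fold difference. With WHP in Cy5 the mean was 2.07 and with WHP in Cy3 it was 2.00, so the size differed little with the dye. The gene was chosen for this value, so it is a description with no test. It ranked second among the 34752 probes detected in the hippocampus, behind the probe A_44_P551963 at 3.07 and ahead of Sostdc1, a secreted BMP and Wnt antagonist, at 1.91. Over all detected probes the median ratio was -0.003. In bulk tissue such as these pools, fewer cells of a type and less RNA per cell cannot be told apart.

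**Figure D1:**
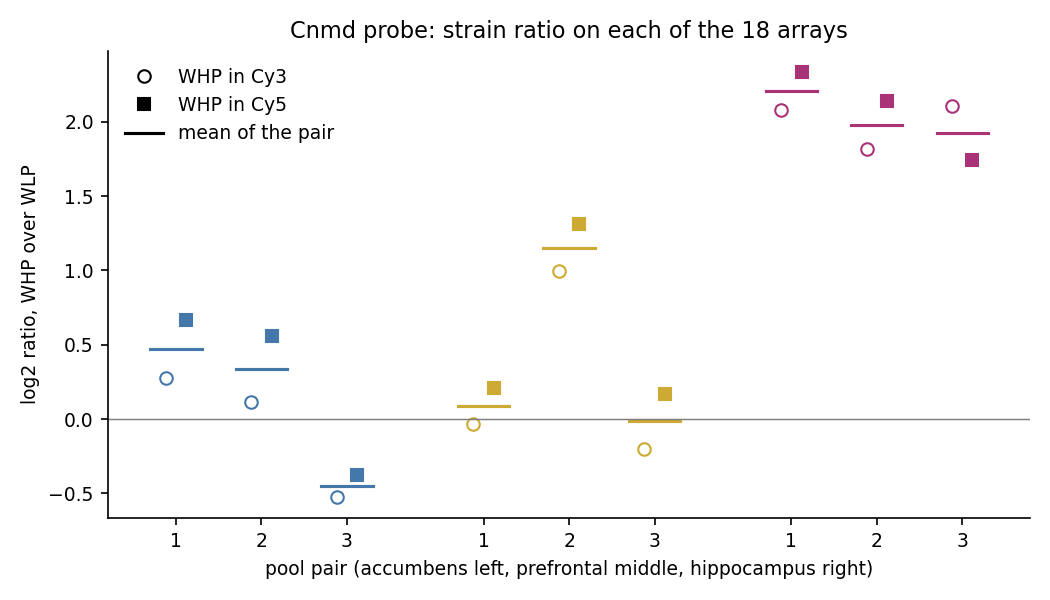
Cnmd log2 ratio of WHP over WLP on each array by area and pool pair (circles, WHP in Cy3; squares, WHP in Cy5; lines, pair means). The 6 hippocampus arrays lie between 1.74 and 2.34; the prefrontal arrays of pair 2 reach 1.31 and 0.99, and the accumbens ratios fall on both sides of 0.

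In the nucleus accumbens no strain difference of Cnmd was detected. The ratios were 0.28 and 0.67 in pool pair 1, 0.56 and 0.11 in pair 2, and -0.52 and -0.38 in pair 3. Pairs 1 and 2 thus lay above 0 and pair 3 below it on both arrays. The mean was 0.12 (SD 0.50, n = 3 pool pairs), with a 95% interval of -0.42 to 0.66 and an adjusted p of 0.83 in limma's moderated fit, Benjamini-Hochberg adjusted over the detected probes. Without pool pair 1 the mean was -0.057. In this area 93 of 30217 detected probes (0.308%) passed an adjusted p of 0.05. The probe was dim here: 4 of 6 WHP channels, those of pairs 1 and 2, and 2 of 6 WLP channels, those of pair 3, were well above background.

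In the prefrontal medial cortex 1 pool pair stood apart. Its ratios were -0.03 and 0.21 in pair 1, 1.31 and 0.99 in pair 2, and -0.20 and 0.17 in pair 3. Pair 2 was above 0 on both arrays, and the arrays of pairs 1 and 3 lay on both sides of 0. The mean was 0.41 (SD 0.65, n = 3 pool pairs), with a 95% interval of -0.13 to 0.94, and without pair 2 it was 0.036. The spread over pairs exceeded this mean. The limma test gave an unadjusted p of 0.12. Only the WHP channels of pair 2 (2 of 6) and 1 WLP channel of pair 1 were well above background, so the probe was not among the 28741 detected there and has no adjusted p in that fit. With all probes tested the adjusted p was 0.85 (limma). Of the detected probes 28 (0.0974%) were called.

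Levels per pool were set side by side after scaling all channels of the arrays to the same distribution of mean brightness. The log2 level in the hippocampus WHP pools was 9.49, 9.27 and 9.34 (mean 9.37, SD 0.11). In the hippocampus WLP pools it was 7.28, 7.29 and 7.41 (mean 7.33, SD 0.07). In the prefrontal WHP pools it was 6.70, 7.67 and 6.38 (mean 6.92, SD 0.67). Outside the hippocampus only the WHP pool of prefrontal pair 2 lay above the hippocampus WLP levels, and all other pools lay below them.

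The accumbens WHP pools had log2 levels of 6.87, 6.74 and 6.44 (mean 6.68, SD 0.22). The accumbens WLP pools had 6.40, 6.40 and 6.89 (mean 6.56, SD 0.28). The prefrontal WLP pools had 6.61, 6.51 and 6.40 (mean 6.51, SD 0.11). By mean level the order was hippocampus WHP, hippocampus WLP, prefrontal WHP, accumbens WHP, accumbens WLP and prefrontal WLP. The last 4 groups overlapped one another, and many of their channels were not above background, so their order is not resolved. The mean level of both strains in the prefrontal cortex minus that in the accumbens was 0.09 ± 0.14 (SE), with an unadjusted p of 0.54 in limma. Without the second prefrontal pair it was -0.099.

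**Figure D2:**
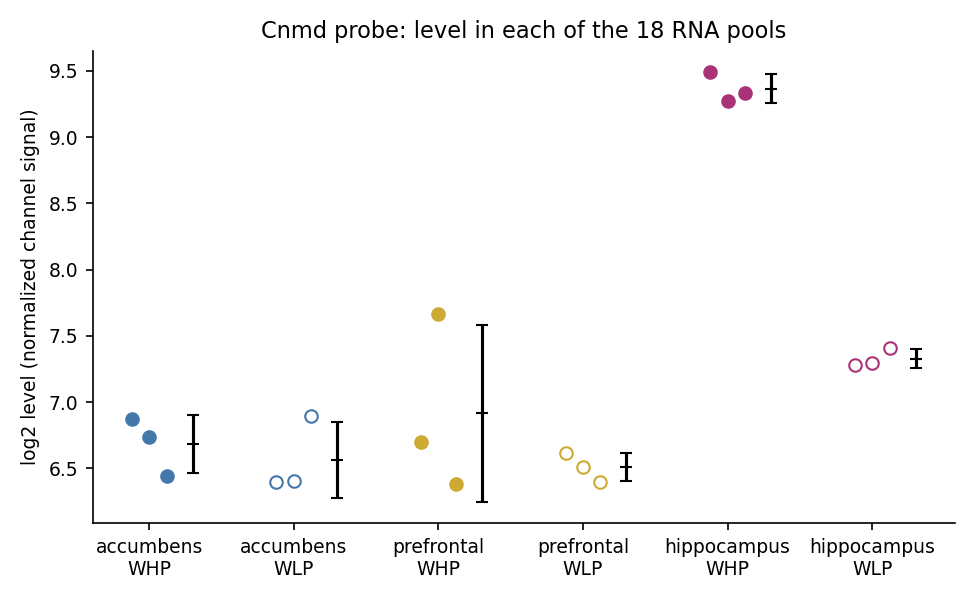
Cnmd log2 level of every pool by area and strain (filled, WHP; open, WLP), with bars for the group mean ± SD over 3 pools. Hippocampus WHP pools lie at 9.27 to 9.49 and hippocampus WLP pools at 7.28 to 7.41; the prefrontal WHP pool of pair 2 (7.67) is the highest outside the hippocampus.

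The hippocampus arrays were on slides 4 and 5 and in scan session 2, and all accumbens and prefrontal arrays were on slides 1 to 3 in session 1. Area and session therefore cannot be told apart in the levels, whereas each strain ratio was measured within an array. Slide 4 held hippocampus pairs 1 and 2, with a mean Cnmd ratio of 2.09, and slide 5 held pair 3, at 1.92. The tissue labels were set against markers. Of 13 hippocampus markers 10 were highest on the hippocampus arrays, with Neurod6, a neuronal transcription factor, at a log2 level of 13.15 against 11.03 in the prefrontal cortex and 8.0 in the accumbens. Of 10 cortex markers 7 were highest in the prefrontal cortex. Of 15 striatum markers 10 were highest in the accumbens, 5 in the prefrontal cortex and 0 in the hippocampus. The striatum list's median log2 level above the channel's median was 2.64 in the accumbens, averaged over 6 pools. It was 2.37 in the prefrontal cortex and 0.25 in the hippocampus. The list thus set the hippocampus apart but hardly separated the prefrontal cortex from the accumbens. Foxp1, a forkhead transcription factor of striatal neurons, had an accumbens ratio of -0.54 ± 0.06 (SE, n = 3 pool pairs; limma adjusted p = 0.017) and was the only member of the 11 gene lists called in any area. The dye-swapped arrays of hippocampus pair 2 hardly correlated over all detected probes (r = -0.005, against 0.63 and 0.30 in pairs 1 and 3). Those of accumbens pair 3 hardly did either (r = 0.04). Cnmd had -0.52 and -0.38 on the arrays of accumbens pair 3. It had 1.81 and 2.14 on those of hippocampus pair 2, but it was chosen by its hippocampal ratios, so these values are no check of the arrays.

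The other detected genes of the BRICHOS family had hippocampal ratios near 0. Tenomodulin, the closest relative of chondromodulin, was not among them. In the hippocampus 6 of 8 listed genes were detected, 4 with a ratio above 0, and their median ratio was 0.06. The largest were 0.10 for Gkn2, a secreted stomach protein, and 0.10 for Itm2c, a membrane protein of neurons. No member passed limma's test, where 95 of 34752 detected probes (0.273%) passed, and 0 had an unadjusted p under 0.05, where 7.04% of detected probes did. These shares are 0.308% and 17.1% in the accumbens and 0.0974% and 8.96% in the prefrontal cortex. In the accumbens the median of 5 detected members was 0.02 and in the prefrontal cortex 0.05, with 0 past the test in both and, in the accumbens, 1 lower at an unadjusted p under 0.05.

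Genes of cartilage matrix and its control also lay near 0 in the hippocampus. Of 22 listed genes 19 were detected, 12 had a ratio above 0, and their median ratio was 0.05. None passed limma's test, and 2 were higher and 0 lower at an unadjusted p under 0.05. Mia, a secreted protein of cartilage, had a hippocampal ratio of 0.50 ± 0.13 (SE, n = 3 pool pairs), and Col11a2, a fibrillar collagen chain of cartilage, had 0.28 ± 0.09. Sox9, the transcription factor of chondrocyte fate, had -0.02, and Acan, the main cartilage proteoglycan, had 0.01. In the accumbens 12 of 18 detected members were above 0 (median 0.14) and in the prefrontal cortex 9 of 18 (median -0.005), with 0 past the test in both and 4 higher and 1 lower, and 2 higher and 0 lower, at an unadjusted p under 0.05. Over all detected probes the share under that p, in either direction, was 7.04% in the hippocampus. It was 17.1% in the accumbens and 8.96% in the prefrontal cortex.

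Regulators of angiogenesis, the process that chondromodulin restrains in cartilage, gave 22 detected genes of 26 in the hippocampus. Their median ratio was 0.03, with 13 above 0, 0 past limma's test and 1 higher at an unadjusted p under 0.05. Vegfa, the main vessel growth factor, had a ratio of -0.01, Serpinf1, a secreted angiogenesis inhibitor, had 0.38, and Adamts1, a secreted protease that also restrains vessel growth, had 0.35. Markers of endothelial cells (14 detected, median 0.008) and of pericytes and vessel muscle (10 detected, median 0.0005) were likewise at 0 calls in limma, with 1 higher and 1 lower, respectively, at an unadjusted p under 0.05. The endothelial members with the largest ratios were Ocln, a tight junction protein, at 0.32, and Vwf, a clotting factor, at 0.24. The pericyte list was split, with 5 members above 0 and 5 below: Vtn, vitronectin, had 0.15 and Higd1b, a pericyte marker, had -0.14. In the accumbens and the prefrontal cortex these 3 lists had medians between -0.19 and 0.02 and 0 members past the test, with at most 1 higher and 3 lower in any list at an unadjusted p under 0.05. The shares of all detected probes under that p were 7.04% in the hippocampus, 17.1% in the accumbens and 8.96% in the prefrontal cortex.

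Markers of tissues that border the hippocampus, the choroid plexus, the meninges and the ependyma, lay above 0 there. The median ratio was 0.76 over 20 choroid plexus markers (19 above 0), 0.32 over 18 markers of meninges and fibroblasts (17 above 0) and 0.41 over 10 ependyma markers (10 above 0). None passed limma's test, and at an unadjusted p under 0.05 only 1 choroid plexus marker was higher, where 7.04% of all detected probes were under that p. The sizes differed from pair to pair. For the choroid plexus list the pair medians were 1.67, 0.10 and 0.54 in the hippocampus. For meninges they were 1.00, -0.05 and 0.29. For ependyma they were 0.64, 0.20 and 0.29. Cnmd had 2.21, 1.98 and 1.92 in the same pairs. The part of these tissues in the hippocampal Cnmd ratios was not tested.

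Single markers showed the same spread. Ttr, the thyroid hormone carrier that choroid plexus epithelium secretes, had hippocampal ratios of 3.07, 0.22 and 1.12. Sostdc1 had 3.80, 0.62 and 1.31 in the same order. Fmod, a small proteoglycan of the fibroblasts' matrix, had 2.15, 0.55 and 1.05, and Col1a1, the main fibrillar collagen chain, had 1.29, -0.31 and 0.70. Each of these 4 genes thus had its lowest hippocampal ratio in pair 2. Igfbp2, a secreted binding protein of insulin-like growth factors, was like them with 1.75, 0.31 and 0.55. The ependyma markers with the largest hippocampal ratios were Cfap126 (0.87) and Dynlrb2 (0.71), parts of motile cilia.

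The prefrontal pair in which Cnmd stood apart was also the one with high choroid plexus markers. Their median ratio was -0.10, 1.89 and 0.04 in prefrontal pairs 1, 2 and 3, beside Cnmd ratios of 0.09, 1.15 and -0.02. In pair 2 Sostdc1 had 5.84 and Ttr 3.91. The meninges list did not follow there, with -0.95, -0.20 and 0.91. In the accumbens the meninges medians were 1.1, 2.30 and -0.77, beside Cnmd ratios of 0.47, 0.34 and -0.45, and the choroid plexus medians were 0.05, 0.08 and -0.05. These medians run over all measured members, some of them not detected in these areas. Over detected members alone the choroid plexus medians were 0.31, 0.17 and -0.13 in the accumbens (14 genes) and -0.16, 2.18 and 0.07 in the prefrontal cortex (13 genes). In each accumbens pair both lists had the same sign as Cnmd. The part of these tissues in the Cnmd ratios of these pairs was not tested.

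Across the 9 pool pairs the Cnmd ratios of the main processing fell into separate clusters, the hippocampus pairs and the rest. For that reason no pooled correlation with the marker lists is given. The clusters were not separate in the authors' deposited ratios. There the arrays of prefrontal pair 2 had 4.00 and 2.38 and the hippocampus arrays had 1.89 to 2.67. With each area's mean subtracted, the Cnmd ratio and the choroid plexus median had r = 0.75 (exact permutation within areas, 216 arrangements, two-sided, p = 0.037, adjusted over 3 lists 0.11) and rho = 0.68 (p = 0.046, adjusted 0.14). Without the 2 pairs farthest from the median of the list, r was 0.47, so the relation rests in part on them. For meninges r was 0.39 (exact permutation p = 0.42, adjusted 0.42) and rho 0.45 (p = 0.36, adjusted 0.51), and r was -0.014 without the 2 farthest pairs. For ependyma r was 0.49 (exact permutation p = 0.28, adjusted 0.42) and rho 0.35 (p = 0.51, adjusted 0.51), and r was 0.68 without them. None of the 3 relations passed after adjustment. The 9 pairs include those of the hippocampus, by whose ratios Cnmd was chosen.

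The 6 accumbens and prefrontal pairs alone, all of 1 scan session and none used to choose the gene, were compared after the values had been seen. Here area means were not subtracted and the arrangements ran across both areas, so these r values differ in kind from those over 9 pairs. The choroid plexus list had r = 0.83 (exact permutation of 720 arrangements, two-sided, p = 0.031, adjusted 0.092) and rho = 0.77 (p = 0.10, adjusted 0.31). Prefrontal pair 2 had a list median of 1.89 and the other pairs had -0.10 to 0.08, so that pair carries most of the list's spread. Without the 2 farthest pairs, prefrontal pairs 1 and 2, the 4 pairs left had list medians of only -0.05 to 0.08, and their r of 0.93 is no support for the relation. The meninges list had r = 0.20 (exact permutation p = 0.73, adjusted 0.73) and rho = 0.37 (p = 0.50, adjusted 0.50), with r = 0.17 over the 4 pairs left without the 2 farthest. The ependyma list had r = 0.49 (exact permutation p = 0.33, adjusted 0.49) and rho = 0.49 (p = 0.36, adjusted 0.50), with r = 0.51 over the 4 pairs left. With the meninges and choroid plexus medians as covariates in the fit over all areas, the hippocampal Cnmd ratio was 1.66. The hippocampus alone has 3 pairs, too few for a correlation.

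**Figure D3:**
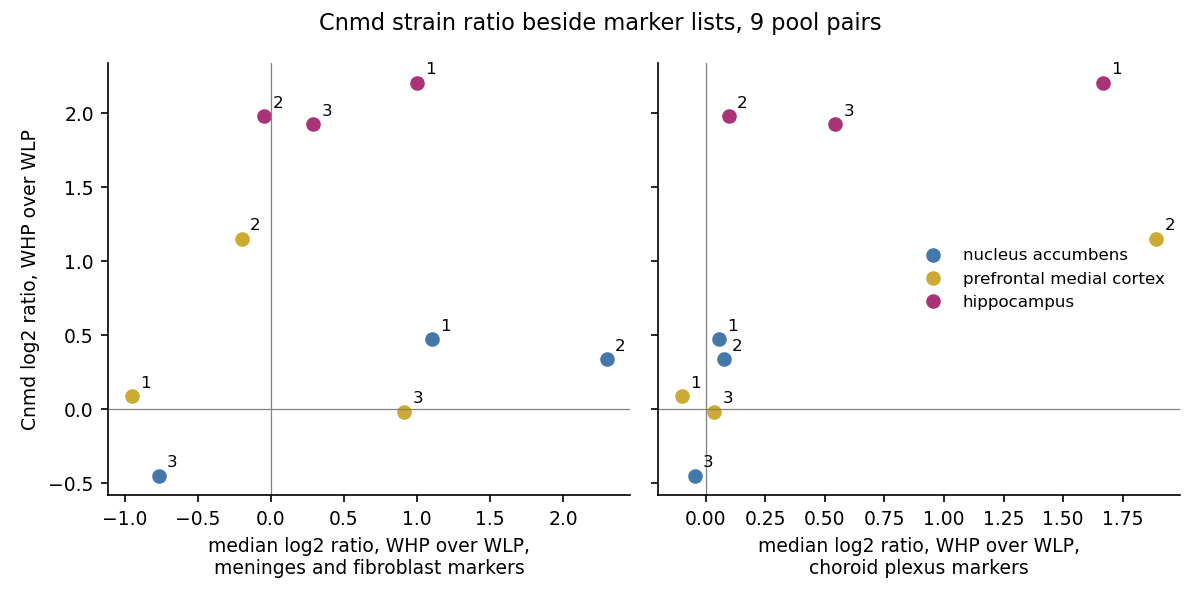
Cnmd log2 ratio of each pool pair (y) against the median log2 ratio of the meninges (left) and choroid plexus (right) markers (x), coloured by area and numbered by pool pair. The hippocampus pairs stay near 2 on the y axis while their choroid plexus medians run from 0.10 to 1.67; prefrontal pair 2 has a choroid plexus median of 1.89 and a Cnmd ratio of 1.15.

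The levels of the pools show the same side by side. In hippocampus pair 2 the choroid plexus markers had a median log2 level of 0.73 above the channel's median in the WHP pool and 0.72 in the WLP pool, and Cnmd had 9.27 and 7.29. In pair 1 the list had 1.75 and 0.10, and in pair 3 it had 1.57 and 0.93. The WHP pool of prefrontal pair 2 had a list level of 1.46, above that of hippocampus WHP pool 2, with a Cnmd level of 7.67. The hippocampus WHP pool thus had the lower list level and the higher Cnmd level of these pools, which were scanned in different sessions. In the other 11 accumbens and prefrontal pools the list level lay between -0.99 and -0.28. All 18 measured meninges markers were well above background in every channel of every area. Of the 20 choroid plexus markers 10 were so in all accumbens channels, 12 in all prefrontal channels and 19 in all hippocampus channels, and in the prefrontal cortex 1 was so in no channel. Of 11 ependyma markers 8, 8 and 9 were so.

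The meninges level ran from 2.52 to 3.03 in the hippocampus WHP pools and from 2.13 to 2.61 in the WLP pools. The ependyma level ran from 0.70 to 0.82 in the WHP pools and from 0.30 to 0.58 in the WLP pools.

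**Figure D4:**
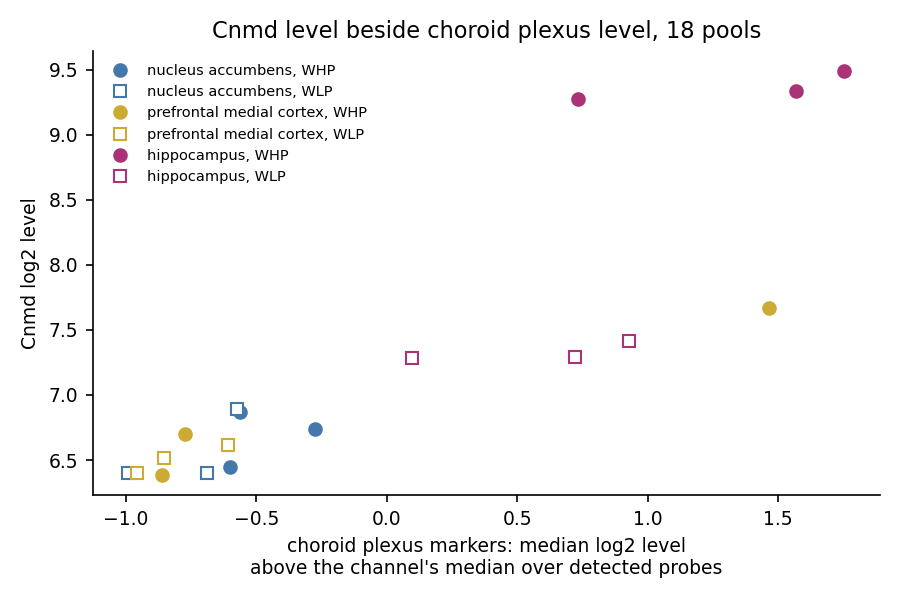
Cnmd log2 level (y) against the median log2 level of the choroid plexus markers above the channel median (x) in each of the 18 pools, by area and strain. The hippocampus WHP pools (list levels 0.73 to 1.75) lie above the WLP pools (0.10 to 0.93) on the y axis; the strains share part of the list range, and in pair 2 the list levels are 0.73 and 0.72.

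The genes most like Cnmd were named by Pearson's r, as a description only. These r values run over all areas without subtracting area means, so they carry the gap between the hippocampus and the other areas and the hippocampal ratios by which Cnmd was chosen. Over the 9 pool-pair ratios, among 4319 genes detected in all areas whose ratios spanned at least 0.5, r was highest for Pyroxd2 (0.94), an oxidoreductase, Cntn1 (0.90), a neuronal cell adhesion molecule, Zeb1 (0.90), a transcriptional repressor, Pgm1 (0.88), a sugar phosphate enzyme, and Akr1c19 (0.88), an aldo-keto reductase. Their hippocampal ratios were smaller: Pyroxd2 had 0.13, 0.11 and 0.15 in the hippocampus pairs and Akr1c19 had 0.78, 0.52 and 0.68. Over the levels of the 18 pools, among 12513 genes, r was highest for Pon3 (0.93), a lactonase, Gsta1 (0.92), a glutathione transferase, Cul4b (0.90), a ubiquitin ligase scaffold, Hunk (0.90), a protein kinase, and Mtap (0.90), an enzyme of methionine salvage. Pon3 had hippocampal ratios of 1.75, 0.42 and 0.68, and Hunk had 0.25, 0.33 and 0.39. These points share the scan session by area and, in each pair, the array, and no gene named here reached the size of the Cnmd ratio in all 3 hippocampus pairs.

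Genes next to Cnmd on the chromosome had hippocampal ratios near 0. Within 1 megabase of the probe on rn4 lay 23 other probes, of which 21 were detected in the hippocampus, and their hippocampal ratios ran from -0.13 to 0.08. None was called in the hippocampus by limma, and 3 had an unadjusted p under 0.05. The nearest named gene, Sugt1, a co-chaperone, has probes 9.56 and 13.1 kb away, with hippocampal ratios of 0.01 and 0.04. Elf1, an ETS transcription factor at 56.6 kb, had 0.01, and Pcdh8, a protocadherin at 166 kb, had -0.10. Olfm4, a secreted glycoprotein at 398 kb, had -0.07, and Rgcc, a cell cycle regulator at 439 kb, had -0.13. The other named genes, Vwa8, Kbtbd6 and Wbp4, had ratios between -0.10 and 0.08. In the accumbens 0 of 19 detected neighbours and in the prefrontal cortex 0 of 18 passed limma's test, with 2 at an unadjusted p under 0.05 in each. Over all detected probes the shares called and at an unadjusted p under 0.05 were 0.273% and 7.04% in the hippocampus. They were 0.308% and 17.1% in the accumbens and 0.0974% and 8.96% in the prefrontal cortex.

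**Figure D5:**
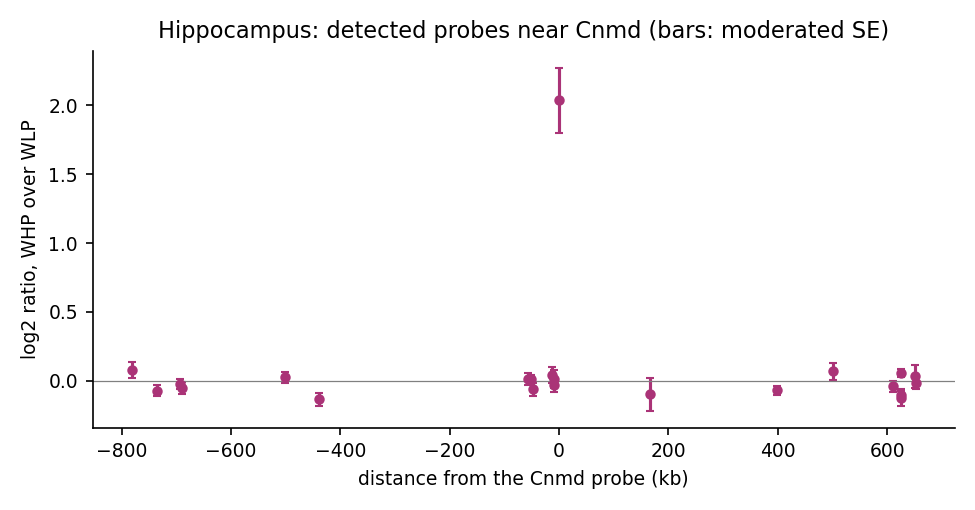
Hippocampal log2 ratio of WHP over WLP for the detected probes within 1 megabase of the Cnmd probe, by distance in kb, as means of 3 pool pairs with bars for limma's moderated SE. Cnmd lies at 2.04 and every neighbour between -0.13 and 0.08.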

How the data were processed

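RNA of 18 two-colour Agilent arrays was measured as spot intensities: the mean signal and local background intensity of each channel were deposited as scanner output, not normalized (Agilent Feature Extraction 10.10.1.1), as read from the file headers. The scanner's flags (well above background, saturated, outlier) are deposited beside them. The authors also deposited a table of log2 ratios, 1 value per spot and array. Set against the scanner's ratios its sign is WHP over WLP and its array medians are -0.01 to 0.02. How it was normalized is not given in the sources used here.

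With limma 3.58.1 in R 4.3.3, intensities were corrected by normexp with an offset of 50, which draws ratios of dim spots towards 0, and normalized by loess with control spots at weight 0. Control spots and spots marked as outliers were left out. The labels' dyes gave each ratio its direction, WHP over WLP. Spots of a probe were averaged, then the 2 arrays of a pool pair, which count as 1 replicate. lmFit and eBayes fitted 9 ratios with 1 coefficient per area. A probe was detected in an area when at least 4 of the 6 channels of 1 strain were well above background, and adjusted p-values (Benjamini-Hochberg, threshold 0.05) run over detected probes. Levels are channel values after loess and Aquantile. The signal over background limits precision: of 45018 spots per array, the green channel had 28670 to 38080 well above background and the red channel 31207 to 38173.

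Probes were named through RefSeq accessions (17524 by their own, 401 by another), current symbols (2847) or synonyms (518), which left 19675 unnamed and 47 with locus placeholders. The members and lists were chosen with earlier results of these data known. Named genes were, by rule, the Cnmd probe, the 5 genes most like it by ratio and by level (genes with a ratio range of at least 0.5 for the first), every detected named gene within 1 megabase, and up to 4 called members of each list or else the 2 with the largest hippocampal ratio. Sox9, Acan, Vegfa, Col1a1, Neurod6 and the probe ahead of Cnmd were chosen outside that rule, after their values were seen. Numbers of pool pairs were not used to pair areas. Same-numbered pairs had correlations of -0.38 to 0.17 and differently numbered pairs -0.19 to 0.36. These values cannot show whether the same rats gave the pools.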

Additional observations from a re-analysis of the deposited data

How the results depend on the processing

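The hippocampal Cnmd ratio of 2.04 stayed above 0 in all 17 alternatives, between 1.66 and 2.59. Its value was 2.59 from processed scanner signals, 2.26 where no background was subtracted, 2.31 with an offset of 0, 2.31 in the deposited value table and 1.66 with meninges and choroid plexus covariates. Leaving out 1 pool pair gave 1.95 to 2.09. The accumbens ratio had no call in any of 18 alternatives (adjusted p in limma 0.63 to 0.99), and its sign turned without pool pair 1 (-0.057, within a leave-one-out range of -0.057 to 0.40) and with WHP in Cy3 alone (-0.045). It was 0.80 from the processed scanner signals, 0.48 with an offset of 0 and 0.48 in the deposited table. The cause was not tested. The prefrontal ratio ran from 0.036 to 1.52, and leaving out 1 pair gave 0.036 to 0.62. In the deposited table the prefrontal ratio was 1.16, and the arrays of pair 2 had 4.00 and 2.38. The hippocampus arrays had 1.89 to 2.67 there, so the areas overlapped. The level difference of prefrontal cortex minus accumbens turned to -0.024 with the scanner's signals and to -0.099 without prefrontal pair 2 (leave-one-out range -0.099 to 0.25). The correlation with meninges turned to -0.014 without the 2 farthest pairs. With a replicate block the ratios were 0.12 in the accumbens (adjusted p 0.79 in limma, still not called), 0.41 in the prefrontal cortex (no adjusted p) and 2.04 in the hippocampus (not tested). The probes called, 93 in the accumbens, 28 in the prefrontal cortex and 95 in the hippocampus, ranged from 0 to 1192, 0 to 205 and 0 to 504, and with the replicate block were 12, 4 and 23. With trended, robust variances limma called 0 in each area, with 4537, 1733 and 2043 at an unadjusted p under 0.05. Signal over background limits Cnmd outside the hippocampus.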
